A study of Mus musculus with 4 samples.

Results

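Expression of 9 genes of retinoic acid signalling was followed in the ventral midbrain of mice labelled Rev-erba knock-out, which lack the nuclear receptor REV-ERBα (RKO), and of wild-type mice (WT): Aldh1a2 and Aldh1a3 of synthesis, Cyp26b1 of breakdown, the binding protein Crabp2, the retinoic acid receptors Rara and Rarb, and the retinoid X receptors Rxra, Rxrb and Rxrg. They were chosen by symbol, 9 of the 19938 genes with a probe set of their own on the array, and each had 1 probe set. The data were 4 arrays of total RNA, 2 from WT and 2 from RKO, hybridised after biotin labelling. All mice were males of 10 to 15 weeks on a C57BL/6J background. They had been entrained for more than 10 days to 12 h of light a day and were then kept in darkness for 2 days before they were killed. The labels call the replicates biological. The number of mice behind an array, the hour of collection and the part of Nr1d1 that was removed are not given in the sources used here.

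Retinoic acid is made from vitamin A. Retinol enters cells with the help of STRA6, retinol dehydrogenases turn it into retinaldehyde, and the ALDH1A enzymes oxidise that to retinoic acid, while CYP26 enzymes break it down. CRABP2 carries retinoic acid to the nucleus, where it binds RAR proteins that sit on DNA as heterodimers with RXR proteins. In the adult brain the leptomeninges are a known site of Aldh1a2 expression, and Rarb and Rxrg are best known from the striatum. REV-ERBα, a nuclear receptor that represses transcription, binds the half-site AGGTCA, which is also a half-site of RAR and RXR elements.

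The knockout was visible in Nr1d1, the gene of REV-ERBα, with an intensity of 2897 and 3099 in WT and 1259 and 1229.7 in RKO (log2 difference -1.27, SE 0.0641, limma adjusted p = 0.00486 over all probe sets with 1 gene symbol). The direction held with each array left out, but the adjusted p was 0.292 without RKO replicate 1 and 0.303 without RKO replicate 2. Of 16 dopamine neuron genes 15 lay above the filter on dim genes, as did 13587 of all 19938 genes. Th, the first enzyme of dopamine synthesis, read 2168 and 2248 in WT. Passing this filter is not a detection call, and 11 of 12 thalamus markers passed it too, so the count cannot check the tissue label. RKO replicate 1 stood apart, with a median over the 13587 tested genes of 539.8 against 558.6 to 558.7 on the other arrays. Over all probe sets its median was instead the highest, at 240.1 against 235.7 to 236.8. Across those tested genes limma called 218, or 1.60%, at a Benjamini-Hochberg adjusted p under 0.05, 87 higher (0.640%) and 131 lower (0.964%) in RKO. All differences below are RKO minus WT in log2 intensity with limma's SE, and adjusted p-values are over all tested genes. With 2 arrays a group, no exact permutation test can go below p = 0.333. The p-values rest on the spread within the groups of these 4 samples, pooled in large part over genes. Limma draws each gene's variance toward a value shared by all tested genes, with 8.73 prior against 2 residual degrees of freedom.

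Of the 9 genes 1 changed: Aldh1a2, an enzyme of the last step of synthesis, fell. Of the others 7 were tested and did not pass, and Crabp2 lay below the filter, a mean intensity of 167 over the 4 arrays, and was not tested. The called share of 1 in 8 tested genes stands beside 1.60% of all tested genes, and is a single gene. The median difference of the 8 tested genes was 0.00062 and that of all tested genes -0.01. By sign, 5 of the 9 genes were lower and 4 higher in RKO.

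**Figure D1:**
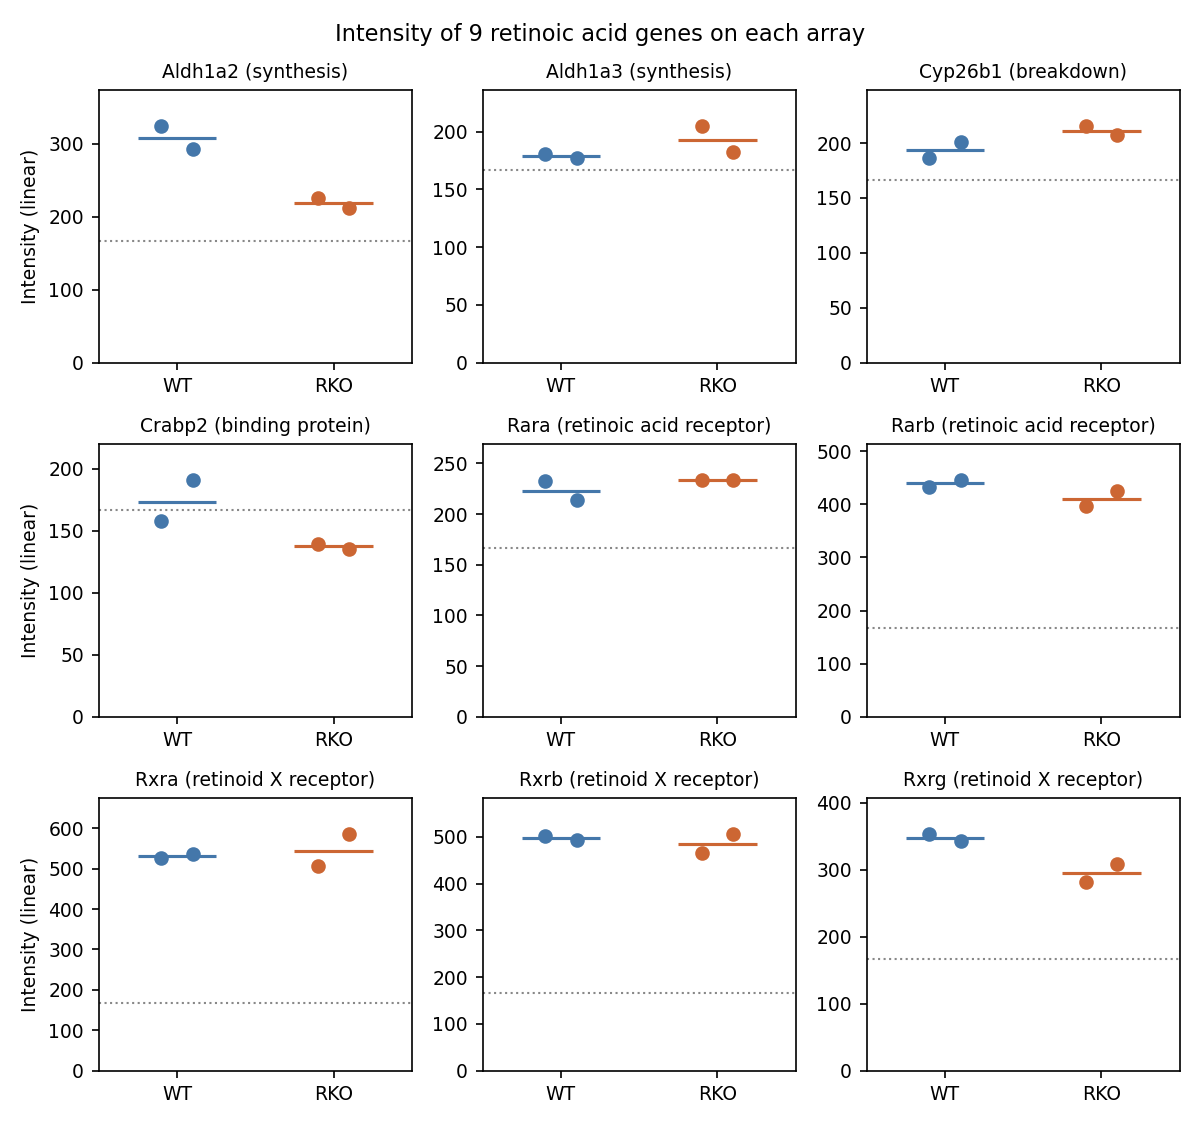
Deposited intensity (linear axis from 0) of the 9 genes on each array, with WT arrays in blue and RKO arrays in orange, replicate 1 left of replicate 2. Bars are means of log2 values turned back to intensity, and the dotted line is the filter at 167. Both RKO points of Aldh1a2, at 225 and 212, lie below both WT points, at 324 and 293, while the points of Rxra and Rxrb overlap between the groups.

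Aldh1a2, which encodes the retinaldehyde dehydrogenase RALDH2, read 324 and 293 in WT and 225 and 212 in RKO. Both RKO arrays were below both WT arrays, and the gap between the groups was wider than the gap within either. The log2 mean was 8.27 ± 0.10 (SD, n = 2) in WT and 7.77 ± 0.0642 (SD, n = 2) in RKO, a difference of -0.50 (SE 0.0660, 95% interval -0.64 to -0.35, limma adjusted p = 0.00283). The RKO level was thus 70.8% of the WT level, and the gene ranked 62 by p among the 13587 tested. In tissue samples such as these, fewer cells of a type and less RNA per cell cannot be told apart. The direction held whichever array was left out (-0.57 to -0.43), but the call did not: the adjusted p was 0.0533 without RKO replicate 2. It was also lost with no filter on dim genes (adjusted p = 0.0923) and when arrays were centred on the median of the tested genes (adjusted p = 0.0627, difference -0.47).

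The 250 bases before the start of Aldh1a2 are shown because it is the gene that fell. They lie at chr9:71215539-71215788 on the + strand of GRCm38.p6 and were taken from RefSeq, as were all windows below.
Aldh1a2: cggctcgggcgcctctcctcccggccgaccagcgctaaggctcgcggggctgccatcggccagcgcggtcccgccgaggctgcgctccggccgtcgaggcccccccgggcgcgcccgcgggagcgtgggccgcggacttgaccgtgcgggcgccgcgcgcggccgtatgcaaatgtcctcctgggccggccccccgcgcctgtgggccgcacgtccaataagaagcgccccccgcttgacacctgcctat
The window was 77.6% G and C. It was searched on both strands for the half-site AGGTCA, its variant AGTTCA and the further variant GGTTCA, for any direct repeat of these 5 bases apart, for AGGTCANNAGGTCA and AANTAGGTCA, forms of the REV-ERB elements RevDR2 and RORE, and for the E-box CACGTG. The longer motifs contain the half-sites. None of these letters was found in the window, which says nothing about more distant sequence.

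The 3 tested genes whose pattern over the 4 arrays lay nearest to that of Aldh1a2, by Euclidean distance of log2 values centred on each gene's mean, were Cyp4f15, Gjb2 and Elovl2. Their distances were 0.0850, 0.0907 and 0.0958. Cyp4f15, a cytochrome P450 of fatty acid oxidation, read 273 and 259 in WT and 184 and 176 in RKO. Gjb2, the gap junction protein connexin 26, read 419.9 and 395 in WT and 281 and 264 in RKO. Elovl2, an elongase of polyunsaturated fatty acids, read 493 and 469.9 in WT and 332 and 334 in RKO. These likenesses rest on 4 arrays and mostly on the step between the groups. Gjb2 is also a member of the list of leptomeningeal fibroblast markers described below.

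Aldh1a3 encodes RALDH3, which catalyses the same step. It read 181 and 177 in WT and 205 and 182 in RKO. The RKO arrays lay above the WT arrays by a margin smaller than the gap between the RKO arrays, and the difference of 0.11 (SE 0.0662, 95% interval -0.04 to 0.26) did not pass (limma adjusted p = 0.548). All 4 values were close to the filter, where array intensities understate fold differences. Whether Aldh1a2 and Aldh1a3 differed from each other in their response was not tested.

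Cyp26b1, a cytochrome P450 that inactivates retinoic acid, read 187 and 201 in WT and 216 and 207 in RKO. The groups did not overlap, but WT replicate 2 came within a small distance of RKO replicate 2. The difference was 0.12 (SE 0.0604, 95% interval -0.01 to 0.26, limma adjusted p = 0.431), so a level in RKO of up to 119.6% of WT lay within the interval.

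Crabp2, the binding protein, read 158 and 191 in WT and 139 and 136 in RKO. Both RKO arrays were below both WT arrays, but the WT arrays were 0.27 apart on the log2 scale, the widest gap within the WT pair among the 9 genes. In a fit without the filter its difference was -0.34 (SE 0.0955, 95% interval -0.57 to -0.11), with an unadjusted p of 0.0104 and a limma adjusted p of 0.348. Its size moved from -0.20 without WT replicate 2 to -0.48 without WT replicate 1. No detection calls were used here, so it is unknown how far the dim RKO values lie above background.

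Of the 5 receptor genes limma called 0, with 1, Rxrg, at an unadjusted p under 0.05. Rara, a widely expressed RAR, read 233 and 214 in WT and 233 and 234 in RKO. The RKO arrays were alike and WT replicate 1 nearly reached them, so the difference of 0.07 (SE 0.0603, limma adjusted p = 0.752) rested on WT replicate 2. Rara lies on chromosome 11 near the altered gene: in the gene order RefSeq gives for GRCm38.p6, 5 protein-coding genes separate it from Nr1d1. The 4 of these above the filter differed by -0.09 to 0.04, with limma adjusted p from 0.598 to 0.999. The other gene, Cdc6, lay below the filter and read 130 and 132 in WT and 158 and 143 in RKO. In the limma fit without the filter its difference was 0.20 (unadjusted p = 0.0276, adjusted p = 0.448).

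Rarb, whose transcription retinoic acid itself induces, read 433 and 446 in WT and 396 and 425 in RKO. The groups did not overlap, and the highest RKO value was near the lowest WT value. The difference was -0.10 (SE 0.0593, 95% interval -0.23 to 0.03, limma adjusted p = 0.545). The window before its start, at chr14:16575477-16575726 on the - strand of GRCm38.p6, is shown because it holds the textbook retinoic acid response element, a direct repeat with 5 bases between its half-sites, here in capitals.
Rarb: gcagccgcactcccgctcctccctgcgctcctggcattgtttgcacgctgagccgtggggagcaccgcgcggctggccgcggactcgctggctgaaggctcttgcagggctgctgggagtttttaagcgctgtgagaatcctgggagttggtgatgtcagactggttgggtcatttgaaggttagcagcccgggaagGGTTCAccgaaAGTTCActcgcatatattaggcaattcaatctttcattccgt
The repeat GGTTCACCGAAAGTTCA runs from 53 to 37 bases before the start. Of 32851 windows of this length for mouse genes, 2 (0.00609%) matched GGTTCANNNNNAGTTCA and 18 (0.0548%) held any direct repeat of the 3 half-sites at this spacing. Rarb was the 1 gene among the 7 of the 9 genes with a window to hold such a repeat. Rarb read in RKO at 93.3% of its WT level, and its probe set is not known to be specific to the transcript from this start.

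Rxra, a broadly expressed RXR, read 526 and 537 in WT and 507 and 586 in RKO. The RKO arrays lay on either side of both WT arrays, and the difference was 0.04 (SE 0.0711, 95% interval -0.12 to 0.19, limma adjusted p = 0.907). It was 0.14 without RKO replicate 1 and -0.07 without RKO replicate 2, so its sign depends on which RKO array is kept. Rxrb, likewise found in most tissues, read 501 and 493 in WT and 465 and 506 in RKO. Those groups overlapped too, with a difference of -0.04 (SE 0.0608, 95% interval -0.17 to 0.10, limma adjusted p = 0.889) that became 0.03 without RKO replicate 1.

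Rxrg, the RXR with the most restricted expression, read 353 and 343 in WT and 282 and 308 in RKO. Both RKO arrays were below both WT arrays, by more than the gap within each group. The log2 mean was 8.44 ± 0.0311 (SD, n = 2) in WT and 8.20 ± 0.0913 (SD, n = 2) in RKO. The difference of -0.24 (SE 0.0619, 95% interval -0.38 to -0.10) had an unadjusted p of 0.00281 and did not pass over all genes (limma adjusted p = 0.0998). It did pass when each array was centred on the median of all its probe sets (limma adjusted p = 0.0268), a setting that called 455 genes. It did not pass with centring on the median of the tested genes, which called 106 genes, or with quantile normalization, which called 166. The value lay between -0.30 and -0.17 when single arrays were left out, and was smallest in size without RKO replicate 1.

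For 7 of the 9 genes there were windows, 13 in all. Among these the half-site AGGTCA, in 14% of all windows of this length, occurred in 1 window each of Rxra and Rxrg, near that share. Both windows belong to the downstream of 2 annotated starts. The Rxra window lies at chr2:27709042-27709291 and the Rxrg window at chr1:167618015-167618264, both on the + strand of GRCm38.p6. Both are shown because REV-ERBα binds this half-site, and capitals mark every half-site found, in either orientation.
Rxra: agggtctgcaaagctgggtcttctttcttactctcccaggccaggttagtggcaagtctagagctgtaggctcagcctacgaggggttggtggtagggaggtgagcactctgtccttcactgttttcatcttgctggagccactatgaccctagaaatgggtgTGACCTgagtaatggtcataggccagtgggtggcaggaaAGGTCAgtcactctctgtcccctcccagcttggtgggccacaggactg
Rxrg: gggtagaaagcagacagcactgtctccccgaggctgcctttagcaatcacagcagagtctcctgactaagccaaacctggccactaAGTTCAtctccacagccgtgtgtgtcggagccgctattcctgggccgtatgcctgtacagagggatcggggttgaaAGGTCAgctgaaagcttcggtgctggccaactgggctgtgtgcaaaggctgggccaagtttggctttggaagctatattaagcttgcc
The Rxra window held AGGTCA 48 to 43 bases before the start and its reverse complement 87 to 82 bases before it. The Rxrg window held AGGTCA 88 to 83 bases before the start and AGTTCA 164 to 159 bases before it. The half-sites are not arranged as the repeats searched for. The probe sets do not separate transcripts from the different starts. Of the motifs containing AGGTCA, AANTAGGTCA was in 0.177% and AGGTCANNAGGTCA in 0.00913% of all windows, and neither was in a window of the 9 genes. For Rara the 4 annotated starts gave windows with half-sites AGTTCA and GGTTCA (in 11.8% and 8.85% of all windows) before 1 start and an E-box (6.02%) before another.

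Among all 9 genes, RKO and WT arrays did not overlap for 7, with RKO below WT for 4 (Aldh1a2, Crabp2, Rarb and Rxrg) and above it for 3 (Aldh1a3, Cyp26b1 and Rara). Over all genes on the array this was so for 40.4%, with RKO below for 19.2% and above for 21.3%. Among the 8 tested genes it was so for 6, against 41.8% of all tested genes. Of these 6, RKO was below WT for 3 (24.6% of all tested genes) and above it for 3 (17.2%). RKO replicate 1 was below RKO replicate 2 for all 3 RXR genes, Rarb and Rara, and above it for the 4 genes of synthesis, breakdown and binding.

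The wider retinoid pathway was described with a list of 33 other genes on the array, from retinol uptake to the third RAR. Of these 20 were tested, 1 rose (Rdh5), 1 fell (Stra6) and 18 did not pass. Its median was -0.01, as for all tested genes, and 9 lay above and 11 below 0. Stra6, the cell-surface receptor that takes retinol from its carrier RBP4, read 384 and 406 in WT and 283 and 285 in RKO. The RKO arrays were close together and well below both WT arrays. The difference was -0.48 (SE 0.0573, limma adjusted p = 0.00155), and with 7 of the alternatives that keep all arrays and with each array left out it passed, but not with no filter (adjusted p = 0.0580). Rdh5, a dehydrogenase of retinol, read 316 and 320.1 in WT and 378 and 407 in RKO. Its rise of 0.30 (SE 0.0593, limma adjusted p = 0.0289) held without WT replicate 2, at an adjusted p of 0.0455. It was lost without WT replicate 1 (0.0931), RKO replicate 1 (0.0767) or RKO replicate 2 (0.150), and with no filter (0.233). With no filter 1 gene of the list passed, and it was another one: Rpe65, the retinoid isomerase of the visual cycle, at 67.4 and 74.5 in WT and 110 and 114 in RKO (log2 difference 0.66, SE 0.0716, limma adjusted p = 0.0448). It is named here after its values were seen, all 4 of them lie below the filter of 167, and its difference was the largest in size of the 33 genes.

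Retinol and retinoic acid are also handled by several bright genes of that list. Aldh1a1, the retinaldehyde dehydrogenase of midbrain dopamine neurons, read 3650.1 and 3732 on the WT arrays and 3306 and 3570.5 on the RKO arrays, a difference of -0.10 (SE 0.0599) that did not pass (limma adjusted p = 0.533). Ttr, the plasma and cerebrospinal fluid carrier of RBP4 and thyroxine, stood at 0.12, and Adh5, an alcohol dehydrogenase, at -0.01. Dhrs3, which reduces retinaldehyde back to retinol and is induced by retinoic acid, read 829 and 791 in WT and 694 and 688 in RKO. Fabp5, a fatty acid-binding protein that can carry retinoic acid, read 1371 and 1262 in WT and 1099 and 1142 in RKO. Both RKO arrays were lower for Dhrs3 (-0.23, limma adjusted p = 0.0827) and for Fabp5 (-0.23, adjusted p = 0.107), and neither passed. Both passed when each array was centred on the median of all its probe sets, at limma adjusted p of 0.0388 and 0.0351, a setting that called 455 genes. They also passed with the filter at the 60th percentile, at limma adjusted p of 0.0206 and 0.0282, a setting that called 296 genes. Neither passed with centring on the median of the tested genes or with quantile normalization.

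**Figure D2:**
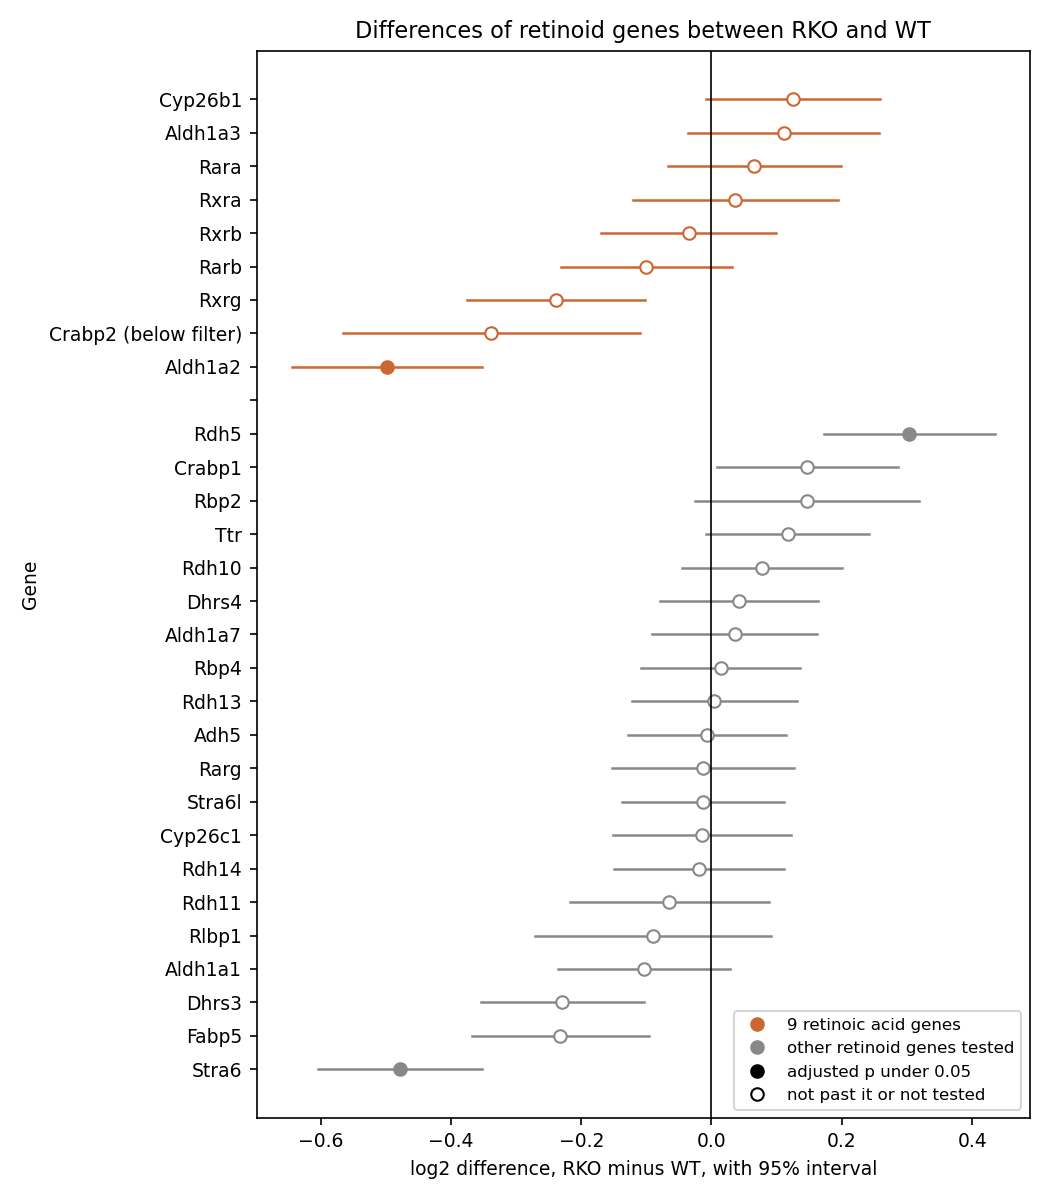
Difference in log2 intensity, RKO minus WT, with limma's 95% interval, for the 9 retinoic acid genes (orange) and the 20 other tested retinoid genes (grey). Filled points passed an adjusted p under 0.05: Aldh1a2 at -0.50, Stra6 at -0.48 and Rdh5 at 0.30. The intervals of Rxrg, Crabp2, Dhrs3, Fabp5 and Crabp1 leave out 0 but their adjusted p did not pass or, for Crabp2, was not computed at this filter.

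Genes that retinoic acid is known to induce or that carry its response elements did not move one way. Of 16 tested on this list 0 rose, 1 fell and 15 did not pass, with 8 on either side of 0 and a median of 0.03. At an unadjusted p under 0.05 there were 7 of the 16, 3 above and 4 below 0, beside 12.8% of all tested genes; for the other retinoid genes it was 5 of 20. The 1 that fell was Stra6, which the pathway list holds too, as it does 2 others of the 23 genes on the array. Besides Dhrs3, the genes named for their brightness were Ret (0.20), the receptor of GDNF, the homeobox factor Meis2 (-0.19), and Plat (0.17), the tissue plasminogen activator, none of which passed. Among receptors that pair with RXR, Thra, the thyroid hormone receptor α, fell from 4875 and 4983 to 3227 and 3436 (log2 difference -0.57, SE 0.0583, limma adjusted p = 7.2e-04). Thra overlaps Nr1d1 on the opposite strand, and an effect of the altered locus itself on Thra cannot be told apart from an effect of losing REV-ERBα. The other 7 tested partners did not pass (3 of all 8 had an unadjusted p under 0.05), among them Nr4a2 (0.18), which dopamine neurons need, Ppard (-0.04) and Nr4a1 (0.07). Of 14 coactivators and corepressors limma called 0, and 0 had an unadjusted p under 0.05. Hdac3 (-0.06), the histone deacetylase that REV-ERBα recruits, Crebbp (0.0028), Tbl1x (-0.02) and Ep300 (-0.06) were the members of this list named for their brightness.

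Markers of leptomeningeal fibroblasts were set beside Aldh1a2. This list was chosen with earlier results of these data known, so its fall is not independent support. Of 26 tested markers 16 fell, 0 rose and 10 did not pass, with 20 below 0, 6 above it and a median of -0.34. The summed intensity of all 34 markers on the array was 19493.1 to 19674.5 in WT and 15745.3 to 15848 in RKO. These sums weigh bright genes most. The brightest, Ptgds, read 6951 and 6496 in WT and 5605 and 5648 in RKO and did not pass (limma adjusted p = 0.0616). No marker of the list was at 0, and the lowest single value was 56.6, of Omd. Those that fell ran from Ogn, a small proteoglycan of connective tissue (-1.11, from 322 and 304 to 153 and 137), over the sulfate transporter Slc13a4 (-0.66), Gjb2 (-0.58), the GABA and taurine transporter Slc6a13 (-0.49) and the proteoglycan Dcn (-0.41) to the organic anion transporter Slc22a6 (-0.28). Of the 34 markers 7 had a lower difference than Aldh1a2 and 13 a lower one than Crabp2. The forkhead factors Foxc1 (-0.32) and Foxc2 (-0.37) of the meninges fell, while the fibrillar collagens Col1a1 (0.13), Col1a2 (0.07) and Col3a1 (0.08), named here after their values were seen, did not pass. Over the arrays left out in turn, 10 to 15 of the 26 markers fell, with fewest without RKO replicate 1 and 11 without RKO replicate 2, and with no filter 7 of 34 did. Of the markers named, Foxc1 lost its call without any array but WT replicate 1, Slc22a6 likewise, Foxc2 without either RKO array, and Dcn without RKO replicate 1. The part of leptomeningeal tissue in the difference of Aldh1a2 was not tested.

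**Figure D3:**
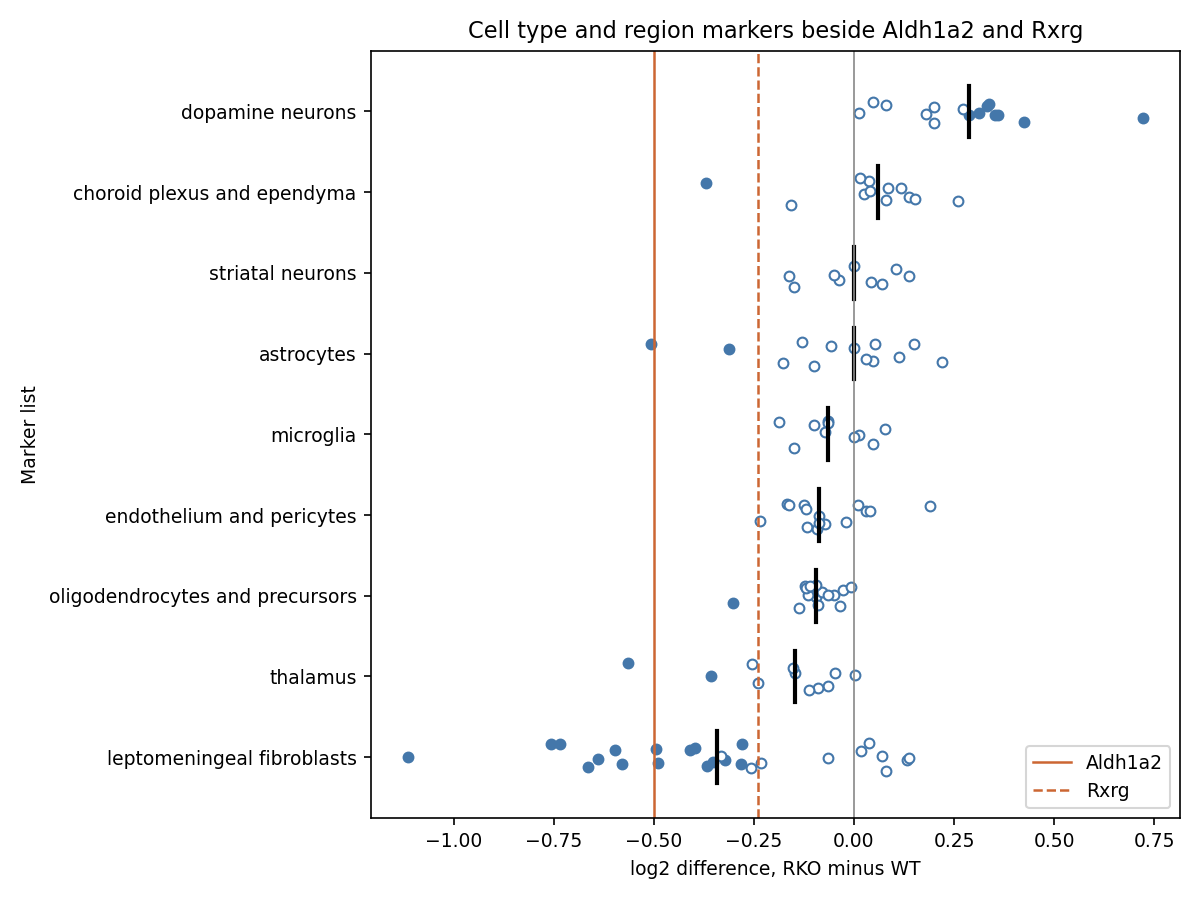
Difference in log2 intensity, RKO minus WT, of each tested marker (points, spread vertically for display, filled where the adjusted p was under 0.05) in 9 lists of cell types and regions. Black bars are list medians, the solid orange line is Aldh1a2 at -0.50 and the dashed one Rxrg at -0.24. The leptomeningeal median of -0.34 is the lowest of the 9 and the dopamine neuron median of 0.29 the highest. The lists were chosen with earlier results of these data known, so this order is not independent of them.

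Other tissue markers were set beside the receptor genes in the same way. For striatal neurons, the cells best known for Rarb and Rxrg, limma called 0 of 9 tested markers (3 at an unadjusted p under 0.05), with a median of 0.00094. Of these markers 5 lay above 0 and 4 below. The 4 named for their brightness were those below: Foxp1 (-0.16) and Pde10a (-0.15), lower on both RKO arrays, and Penk (-0.04) and Rgs9 (-0.05), nearer 0. Ppp1r1b (0.14), named here after its values were seen, was higher on both RKO arrays. Of 11 thalamus markers 2 fell, Prkcd (-0.57) and Rora (-0.36), and 10 lay below 0, with a median of -0.15. All 16 oligodendrocyte and precursor markers lay below 0 with a median of -0.09, and 1 fell, Opalin (-0.30). Of 13 astrocyte markers Gfap (-0.51) and Aldh1l1 (-0.31) fell, with a list median of 0.00081. On this list 7 lay above 0 and 6 below, and 6 had an unadjusted p under 0.05. Gja1 (0.22) and Sox9 (0.15), named here after their values were seen, were higher on both RKO arrays and did not pass. Of 12 markers of choroid plexus and ependyma 1 fell, Kcnj13 (-0.37), and 10 lay above 0 (median 0.06). Limma called 0 of 15 endothelial and pericyte markers (4 at an unadjusted p under 0.05, median -0.09) and 0 of 10 microglial markers (2 at that p, median -0.07). Of 15 dopamine neuron markers 8 rose, all 15 lay above 0, and the median was 0.29. Of the calls named in these lists, Opalin kept its own only without WT replicate 2, Kcnj13 only without WT replicate 1, Aldh1l1 without WT replicate 2 or RKO replicate 2, and Rora lost its call without RKO replicate 1. The part of any of these cells in the value of Rxrg was not tested.

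**Figure D4:**
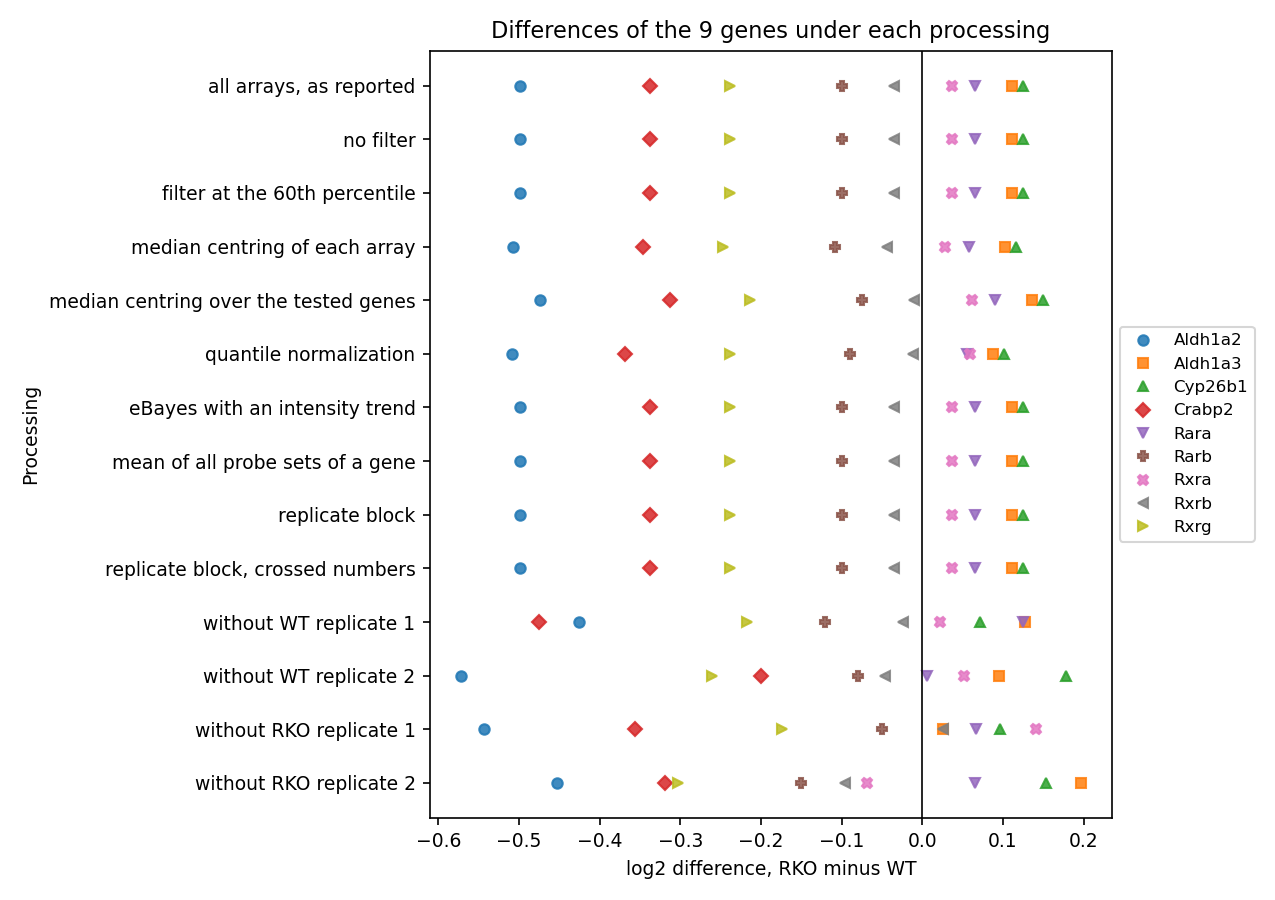
Difference in log2 intensity, RKO minus WT, of the 9 genes under each processing, from all arrays as reported down to the fits with 1 array left out. Aldh1a2 stays between -0.57 and -0.43, Crabp2 moves between -0.48 and -0.20, and only Rxra and Rxrb cross 0.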

How the data were processed

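The authors deposited a normalized intensity for each probe set of each array. The values (6.51 to 21034.5) show a linear scale. The submitters' processing notes name GCOS and RMA, with no settings. RMA as usually run equalises the arrays' distributions, which takes out shifts shared by most genes. Here the intensities were turned into log2 values. Of 35556 probe sets, 21789 had 1 gene symbol in the platform annotation, 1621 had several and 12146 none, and only the first kind was used. The brightest probe set stood for a gene, genes whose mean was under the 40th percentile over all probe sets were left out, and 13587 of 19938 genes were tested with limma 3.58.1 (lmFit, eBayes) under R 4.3.3. The script was tested on simulated data, where limma called 34% of true differences of 0.25 and 100% of those of 0.5, with 13 false calls. A difference of the smaller size can thus fail to pass. The number of arrays limits the precision. All 9 symbols matched RefSeq by Entrez identifier.

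The 9 genes and all gene lists were chosen with earlier results of these data known. Genes to be named were the 9 genes and, in each list, those with an adjusted p under 0.05 and the 4 brightest. The nearest genes of a called one were added. In the marker lists only some of these are named, as examples, and counts over named genes cover only those. Alternatives changed the filter, the scaling, the variance model, the probe set rule, a replicate block and the arrays kept.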

Additional observations from a re-analysis of the deposited data

How the results depend on the processing

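The count of 218 changed genes was 31 with no filter, 455 with median centring of each array, 499 with an intensity trend and 73 to 293 with 1 array left out, fewest without RKO replicate 1. Of the 9 retinoic acid genes, 0 passed with no filter and 0 of 3 with the 60th percentile filter, which removes Aldh1a2, and 2 (Aldh1a2 and Rxrg) passed with median centring. With 1 array left out 0 to 1 passed. Of the other retinoid genes 1 passed with no filter (Rpe65, otherwise below the filter) and 3 of 10 with the 60th percentile filter. With median centring 4 passed, and with an intensity trend 5. Centring on the tested genes, added after seeing the data, called 106 genes and 0 of the 9. Of the 21 named genes called with all arrays, 13 lost their call with no filter, 9 without RKO replicate 1, 7 without RKO replicate 2, 7 with centring on the tested genes and 3 each with quantile normalization, without WT replicate 1 and without WT replicate 2, and 0 changed sign. The cause was not tested.

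With the replicate number as a block, 259 genes passed, 1 of them among the 9, and the block changed no call on them. Same-numbered arrays deviated with a correlation of -0.11 over genes, so the pairing by number was not used, and crossed numbers, added later, called 696 genes, 2 of the 9 and 4 retinoid genes. Nr1d1 stayed between -1.32 and -1.22 with 1 array left out, was not called without RKO replicate 1 (adjusted p = 0.292) or RKO replicate 2 (0.303), and was -1.24 (adjusted p = 0.0607) when centred on the tested genes.

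Signs changed for values near 0 that did not pass: Crebbp was -0.0056 with median centring, Adh5 0.018 and Tbl1x 0.0086 when centred on the tested genes, and Adh5 0.018 and Tbl1x 0.0052 with quantile normalization. With 1 array left out, Rxra ranged from -0.068 to 0.14, Rxrb from -0.096 to 0.026, Adh5 from -0.018 to 0.0044 and Crebbp from -0.044 to 0.0498. The number of arrays limits all of these values.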
